A study of Mus musculus with 13 samples.

Results

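Binding of the glucocorticoid receptor (GR) was compared between corepressor-deficient and control mouse liver in the absence of added hormone. The comparison rests on 4 of the 13 libraries of the series, 2 per genotype, which were deposited as 2 of its 7 peak lists. All animals were male, received saline by intraperitoneal injection at zeitgeber time 8 (hours after lights on), and gave their livers 2 h later at zeitgeber time 10. The control animals are labelled GFP and the dKO animals CRE, and the design text gives the knockout as a double one that includes the corepressor NCOR1. The route, promoter and target cells of the Cre, the age of the animals and the number of animals behind a library are not given in the sources used here. Both libraries of a genotype were pooled into 1 list before deposit. The spread between animals is therefore not known, no difference was tested, and every interval covers counting error only.

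GR is a nuclear receptor that binds a palindromic DNA element as a dimer when occupied by corticosterone, the glucocorticoid of the mouse, whose blood level climbs toward the evening. In hepatocytes it acts with C/EBP, HNF4A, STAT5 and forkhead factors at enhancers of genes for gluconeogenesis, amino acid breakdown and plasma proteins. NCOR1 is a corepressor: it docks on nuclear receptors and other chromatin-bound factors and carries HDAC3, an enzyme that removes acetyl groups from histones.

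The GR lists held 30011 peaks in control and 23362 in dKO, all windows of 200 bp, and together 33885 distinct sites. They rested on 27.5 M tags (aligned reads) in control and 31.1 M in dKO, with estimated fragment lengths of 140 and 164 bp and 5.0% and 3.40% of tags inside peaks. The GR libraries cannot show the deletion itself. In the NCOR1 lists of vehicle-treated livers, from 1 library each, the dKO list held 17282 peaks and 2.07% of tags in peaks, against 39458 and 8.52% in control. With whole liver, weaker binding per cell and fewer cells with the site bound cannot be told apart.

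To show the DNA under sites that differ in their dKO signal, promoter sequences were taken from RefSeq (GRCm38.p6, the assembly that mm10 names). A shared GR peak was centred in 1172 of 32817 distinct promoter windows, each reaching from 250 bases before to 50 bases after a transcription start, and these windows held 1023 shared sites. The sequences below come from the 5 strongest shared GR sites at promoters of protein-coding genes that hold the consensus GR palindrome upstream of the start and under the control peak. They are shown because this palindrome was found at promoter sites with a dKO to control ratio below that of the typical shared site and, in this full form, at none above it. Each is the part of the control peak upstream of the start, 5′ to 3′ on the strand of the gene, with the palindrome in capitals.
Mt1 (chr8:94178913-94179088, plus strand): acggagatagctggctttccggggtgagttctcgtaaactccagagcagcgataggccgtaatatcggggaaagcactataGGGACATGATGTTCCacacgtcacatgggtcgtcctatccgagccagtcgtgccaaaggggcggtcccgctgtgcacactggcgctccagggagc
Acnat2 (chr4:49408152-49408331, minus strand): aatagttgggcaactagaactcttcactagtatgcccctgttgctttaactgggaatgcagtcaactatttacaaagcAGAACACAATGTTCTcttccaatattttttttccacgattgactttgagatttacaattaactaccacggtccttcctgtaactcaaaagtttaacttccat
Slc10a6 (chr5:103629449-103629649, minus strand): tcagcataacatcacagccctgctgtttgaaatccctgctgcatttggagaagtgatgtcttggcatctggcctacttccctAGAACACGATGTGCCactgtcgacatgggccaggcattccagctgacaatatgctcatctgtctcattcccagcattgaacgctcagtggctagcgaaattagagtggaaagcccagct
Sgk1 (chr10:21993640-21993802, plus strand): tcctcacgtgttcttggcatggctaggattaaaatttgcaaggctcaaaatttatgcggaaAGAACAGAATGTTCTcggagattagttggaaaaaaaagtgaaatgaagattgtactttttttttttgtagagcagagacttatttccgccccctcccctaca
Map3k6 (chr4:133240568-133240745, plus strand): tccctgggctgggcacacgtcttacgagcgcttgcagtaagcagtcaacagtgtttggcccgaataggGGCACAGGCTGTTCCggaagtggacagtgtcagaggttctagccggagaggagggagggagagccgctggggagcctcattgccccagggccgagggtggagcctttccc
Mt1, which encodes a metal-binding metallothionein, had GR tag counts (tags per 10 M) of 148.0 in control and 58.3 in dKO under vehicle. Acnat2, a gene of the acyl-CoA amino acid N-acyltransferase family, had 104.5 and 64.4. The steroid sulfate transporter gene Slc10a6 had 99.0 and 65.8, and the kinase gene Map3k6 77.5 and 51.1. Sgk1, a serum- and glucocorticoid-induced kinase, had 72.6 and 57.2. All 5 promoter sites were lower in dKO, by the widest margin at Mt1 and the narrowest at Sgk1. This direction follows from the choice of a palindrome found only below the typical site. All 5 overlapped an NCOR1 peak of control liver, as did the GR sites of 61.6% of the 1172 windows. As a contrast, the strongest promoter site with a log2 ratio over 0.5 above the median and a GC box, GGGGCGGGG, belonged to Id4, an inhibitor of helix-loop-helix factors, with 13.3 in control and 19.4 in dKO. The GC box is in capitals and lies on the opposite strand.
Id4 (chr13:48260880-48261080, plus strand): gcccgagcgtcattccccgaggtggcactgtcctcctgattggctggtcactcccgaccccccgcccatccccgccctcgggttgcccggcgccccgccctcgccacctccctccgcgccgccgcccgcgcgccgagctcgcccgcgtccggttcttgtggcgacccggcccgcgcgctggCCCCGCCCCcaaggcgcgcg

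Of the 30011 control peaks, 19488 (64.9%) shared at least 1 bp with a dKO peak, which is 83.4% of the dKO list. A further 598 control and 435 dKO peaks had no overlap but lay within 500 bp of a peak of the other list, and are set aside here. Sites of control alone, with no dKO peak within 500 bp, numbered 9925 (33.1%, exact 95% interval 32.5 to 33.6), and sites of dKO alone 3439 (14.7%, 14.3 to 15.2). The limit itself separates sites 500 bp (control) or 499 bp (dKO) away, just inside, from sites 502 bp away in either list, just outside. With the control list shortened to the 23362 peaks of highest tag count, 5550 control and 5657 dKO peaks had no counterpart within 500 bp. A peak pairs with at most 1 other, so lists of equal length give near-equal counts by construction. These counts therefore cannot show whether the asymmetry depends on list length, and control peaks removed by the cut no longer counted as counterparts. The asymmetry was wider among peaks at least 8-fold over the surrounding 10 kb in both lists, with 4726 control and 764 dKO sites. Each list was filtered before pairing, so a called partner under 8-fold counted as absent. At shared sites the median of this enrichment was 11.7 in control and 9.62 in dKO. Sites of a single genotype were weak, with median tag counts of 8.74 in control and 6.58 in dKO, against 16.2 and 14.0 at shared sites. A missing peak means that none was called at this depth, where 15 tags, the threshold of the lists, are a tag count of 5.46 in control and 4.82 in dKO.

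At the shared sites the dKO tag count was 0.875 times the control tag count at the median, a log2 ratio of -0.19. All log2 ratios below are dKO over control and, unless called uncentred, have this median subtracted, so that 0 is the typical shared site. The middle 50% of sites lay between -0.34 and 0.26. At 818 sites (4.2% of all shared sites) the ratio was 2-fold or more below the median, and at 79 sites (0.405%) 2-fold or more above it. Without centring these counts were 1450 and 26, and with ratios centred on the strongest 20% of sites 499 and 182. With the shared sites in 5 equal groups by mean tag count (quintiles), 10.2% of the strongest, at 21.1 or more, were 2-fold below, against 1.0% of the weakest. Counting alone gives an SD of 0.43 in the weakest quintile and 0.24 in the strongest, where the observed SDs were 0.39 and 0.57. The weakest sites enter only where both lists called a peak, which limits their ratios.

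The 12 genes with the lowest ratio, each at its lowest site above the median strength, included several with liver functions, and before centring GR at these sites was 6.25 to 10.2 times lower in dKO than in control. These sites were chosen by the ratio, so their ratios are a description. Near Zbtb20, a zinc-finger repressor of the fetal gene Afp, the tag count was 86.5 in control and 8.51 in dKO (chr16:42836506-42836706, 39.1 kb outside the gene; ratio -3.15, counting interval -3.76 to -2.55). Inside Scara5, a ferritin receptor gene, it was 96.8 and 9.79 (ratio -3.11; chr14:65720444-65720644). Inside Ankrd44, which encodes an ankyrin repeat subunit of a protein phosphatase, it was 75.2 and 7.87. Those are the only ratios of the 12 beyond -3. Mat1a, the liver enzyme that makes S-adenosylmethionine, had 99.0 and 13.8 at a site 2.54 kb outside the gene (chr14:41102368-41102568; ratio -2.65). Ephx2, the soluble epoxide hydrolase, had 35.9 and 5.30, and Serpina5, a protease inhibitor of the coagulation system, 71.7 and 10.3. Cmah, which hydroxylates CMP-sialic acid, had 66.3 and 10.6 inside the gene. The remaining sites, near Lemd1, Gm826, Tbc1d22a, Gcnt4 and Cdc14a, had control tag counts of 36.0 to 86.8 and dKO tag counts of 4.82 to 11.9. Cmah was the last gene taken, at -2.45, and the endothelial scavenger receptor gene Stab2, at -2.33, the first not taken.

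All 12 of these sites overlapped an NCOR1 peak of control vehicle liver, with NCOR1 tag counts of 11.0 to 77.4, and 1 (Mat1a, 8.01) an NCOR1 peak of dKO liver. All 12 were also called in both GR lists of dexamethasone-treated livers, whose libraries took no part in the choice of sites. So were 82.9% of all shared sites. In these lists the dKO tag count was again the lower of the pair at each of the 12 sites. It was 212.6 in control and 70.0 in dKO at Zbtb20, 214.0 and 20.5 at Ankrd44, and 79.6 and 38.5 at Mat1a. The dKO count was also the lower at 83.2% of all 16156 shared sites called in both lists. Centred on its own median, the dexamethasone ratio of the 12 sites ranged from -2.98 to -0.65, with a median of -1.81.

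The 12 genes with the highest ratio were led by Klf6, a Krüppel-like factor gene, where the tag count was 20.9 in control and 63.7 in dKO (chr13:5841483-5841683, 19.9 kb outside the gene; ratio 1.80, counting interval 1.38 to 2.26). Inside Camk2d, a calcium/calmodulin-dependent kinase gene, it was 19.8 and 56.4, and inside Cblb, a ubiquitin ligase gene, 41.9 and 115.6 (chr16:52094741-52094941; ratio 1.66). Near Cyp4a14, a fatty acid hydroxylase gene regulated by PPARα, it was 12.7 and 31.9. These sites had higher counts in dKO without any centring. The other 8, at Utrn, Arhgef3, Smarca4, Ext1, Slc25a30, Spata13, Micall1 and Sptbn5, had 9.10 to 24.4 in control and 22.0 to 51.9 in dKO. The last of them, Sptbn5, stood at 1.13, and the first gene not taken, Myo1g, at 1.12. Of the 12 sites 4 overlapped a control NCOR1 peak, with tag counts from 8.72 at Camk2d to 39.7 at Cyp4a14. Among all shared sites 45.2% did. Under dexamethasone 11 of the 12 were called in both lists, against 82.9% of all shared sites. The dKO tag count was the higher at 10 of the 11, with 146.4 in control and 215.6 in dKO at Cblb. It was the lower at Sptbn5, with 64.8 and 49.2, and at 83.2% of all shared sites called in both lists. Both sets are shown with their values in the vehicle and dexamethasone lists in the plot of named sites.

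**Figure D1:**
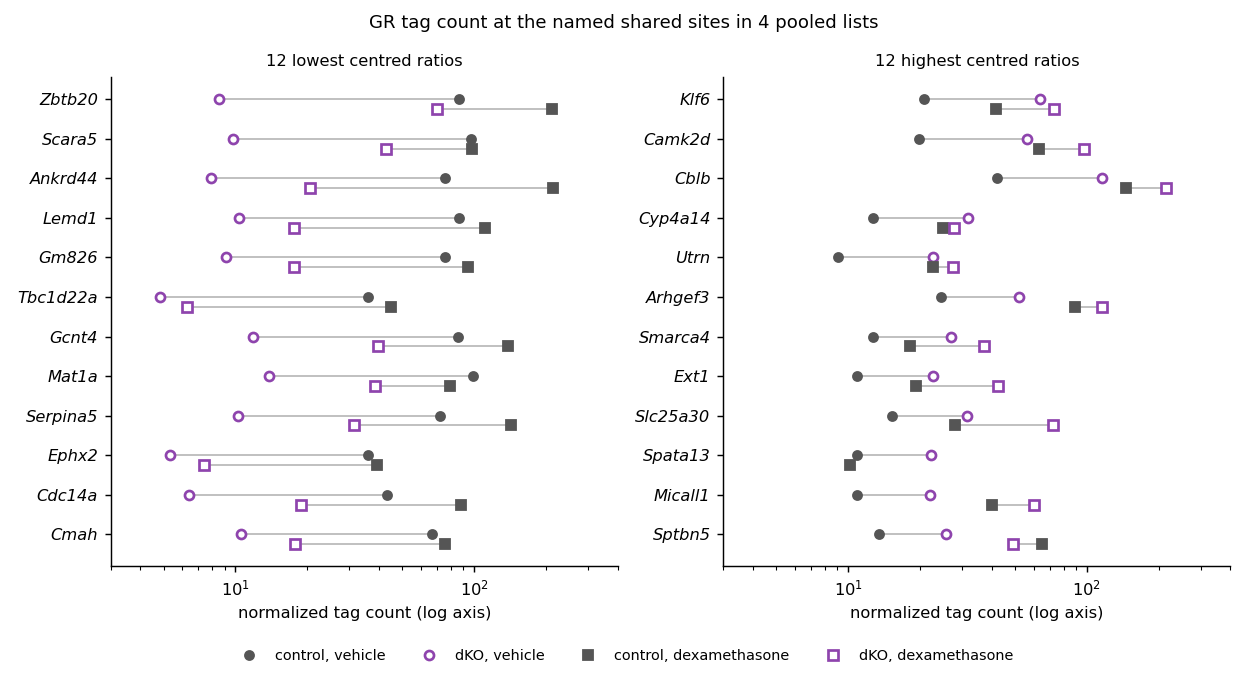
Normalized tag count (tags per 10 M, log axis) of GR at the 12 shared sites with the lowest (left) and the 12 with the highest centred ratio (right), 1 row per gene. Circles are the vehicle lists that chose the sites and squares the dexamethasone lists; filled grey is control and open purple dKO, and a line joins each pair. At the 12 sites on the left the dKO symbol lies left of control in both pairs, whereas on the right it lies to the right of control in all 12 vehicle pairs and 10 of 11 dexamethasone pairs.

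The sites with most GR did not have the lowest ratios. The 10 shared sites of highest mean tag count had centred ratios from -1.42 to -0.13, all below the typical site. This mean includes the dKO count, so ranking by it works against low ratios. All 10 overlapped a control NCOR1 peak. Of all 152 shared sites with a mean tag count of 100 or more, 74.3% did, and their median ratio was -0.52. The strongest, inside Klf13, had tag counts of 724.8 in control and 433.8 in dKO (chr7:63896967-63897167; ratio -0.55). The site 86.0 kb from Ptpn1, which encodes a phosphatase of the insulin receptor, had 626.3 and 418.7. That near Armc12 had 560.1 and 333.3, and the intragenic site of Zbtb16, a zinc-finger gene induced by glucocorticoids, 533.1 and 311.1. The lowest of the 10 was near Slc45a1, with 470.0 and 154.1 (ratio -1.42), and the highest in Per1, a clock gene with GR elements, with 344.4 and 275.0. The counting interval at Per1, -0.27 to 0.00, reached the median site, and those of the other 9 did not. Under dexamethasone, the centred ratios of the 10 sites lay between -0.41 (Slc45a1) and 0.11 (Ptpn1).

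Well-known GR target genes differed widely in how much of their vehicle binding was present in dKO liver. At the strongest shared site of Fkbp5, the cochaperone gene that limits GR signalling, the centred ratio was -2.15 (counting interval -2.37 to -1.93) under vehicle and -0.36 under dexamethasone, and 2 of its 7 shared sites were 2-fold below the median. Tat, the tyrosine aminotransferase gene and a classic GR target in liver, stood at -1.44 at its strongest site, which overlapped no NCOR1 peak, and the highest of its 3 shared sites stood at -0.97. Klf9, a Krüppel-like factor gene, had 187.1 in control and 82.0 in dKO 5.27 kb from the gene (ratio -0.997), but a median of -0.05 over its 4 shared sites. For Klf15, a regulator of amino acid breakdown and gluconeogenesis, the values were 118.7 and 56.8, and all 8 shared sites lay below 0, the highest at -0.13. The gluconeogenic genes G6pc and Pck1 stood at -0.96 and -0.71 at their strongest sites, with 67.2 and 30.3 at G6pc (chr11:101362309-101362509). Their 4 and 2 shared sites were all below the median site.

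Other targets stood nearer the typical site. Tsc22d3, which encodes the anti-inflammatory protein GILZ, had 59.9 in control and 41.6 in dKO (ratio -0.33). The MAP kinase phosphatase gene Dusp1 had 48.1 and 33.7 (ratio -0.32). Both ratios lay near the lower quartile of all shared sites (-0.34), and the median over the 10 shared Tsc22d3 sites was also -0.33. For Irs2, the insulin receptor substrate gene, the values were 31.1 and 24.1, and for the coactivator gene Ppargc1a 20.4 and 23.8 at the strongest of 10 shared sites. The counting intervals of Tsc22d3, Dusp1, Irs2, Sgk1 and Ppargc1a all held 0, with upper ends of only 0.008 at Tsc22d3 and 0.06 at Dusp1. The 10 shared sites of Ppargc1a ranged from -1.29 to 0.42, with 1 of them 2-fold below the median. Of the 16 control and 10 dKO peaks of Ppargc1a, 6 were of control alone, the strongest with 27.1, and 0 of dKO alone. For Cebpb, the gene of a GR partner factor, these were 7 of 10 control and 0 of 3 dKO peaks. Over all genes the shares were 33.1% of control and 14.7% of dKO peaks. At genes of the receptor and of NCOR1, the strongest site had a centred ratio of 0.12 at Nr3c1, which encodes GR, and 0.17 at Ncor1, with counting intervals that held 0 and values below 0 without centring. Over the 6 shared sites of Nr3c1 the median was -0.28. Hdac3 stood at 0.61 (0.03 to 1.20), with 15.7 in control and 21.0 in dKO.

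The ratio at a shared site went with the presence of NCOR1 in control liver, a readout from other libraries that had no part in pairing the GR sites. The NCOR1 and GR lists share the input library, and whether they came from the same animals is not given in the sources used here. At the 6426 shared sites with an NCOR1 peak in control and none in dKO, the median ratio was -0.35 (uncentred -0.55), and 10.4% were 2-fold or more below the median of all sites. At the 10140 sites with no NCOR1 peak in either genotype it was 0.16 (uncentred -0.03), and 0.888% were 2-fold below. The 2392 sites with an NCOR1 peak in both genotypes stood between, at -0.12, and the 530 with one in dKO alone at 0.12. Median GR tag counts were 15.7 in control and 10.6 in dKO at the first group of sites, and 16.7 and 16.5 at sites without NCOR1. Sites without NCOR1 thus had nearly the same median count in both genotypes, and sites with NCOR1 in control alone had a lower one in dKO.

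**Figure D2:**
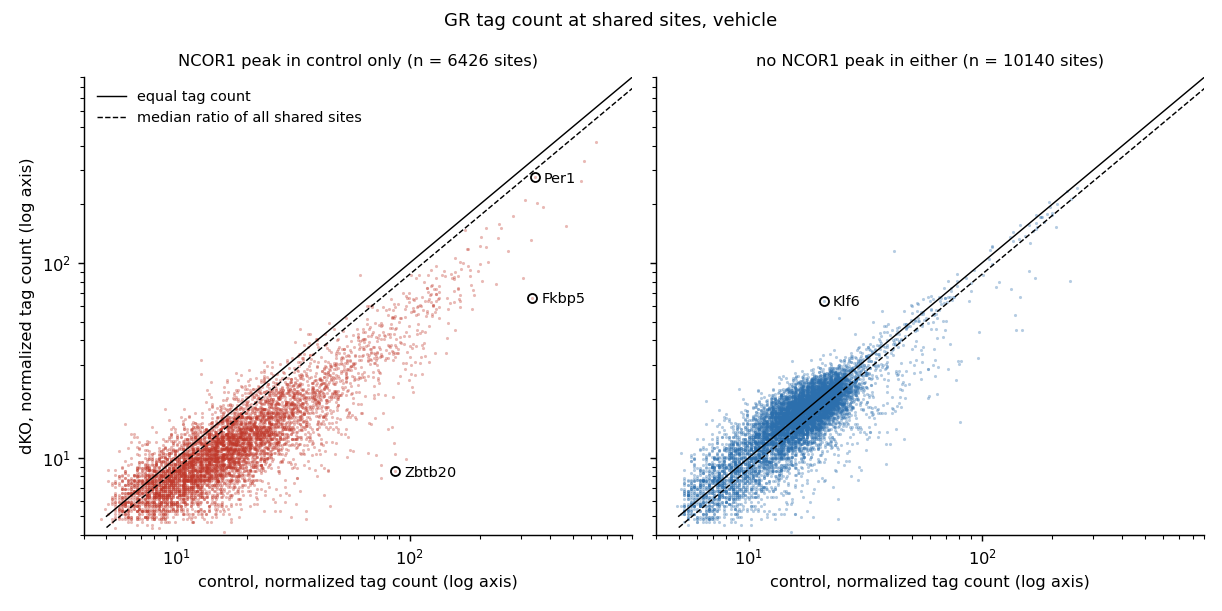
Normalized GR tag count of each shared site in control (x) and dKO (y) under vehicle, both on log axes, for sites with an NCOR1 peak in control alone (left, 6426 sites) and with none in either genotype (right, 10140 sites). The solid line marks equal counts and the dashed line the median ratio of all 19488 shared sites; circles mark genes named in the text. Most points on the left (77.8%) lie below both lines, though some of the highest counts, such as Per1, lie close to the dashed line. Points on the right mostly follow the line of equal counts.

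This difference was present at every level of GR binding and was wider at strong sites. Weak sites enter only where both lists called a peak, which limits low ratios there. The part of this limit in the widening was not tested. From the weakest to the strongest quintile of shared sites, the median ratio with NCOR1 in control alone was -0.10, -0.31, -0.39, -0.51 and -0.65. Without NCOR1 it was 0.12, 0.17, 0.18, 0.17 and 0.14 in the same quintiles. In the strongest quintile, 325 of 1397 sites with NCOR1 in control alone (23.3%) were 2-fold below the median of all sites, against 38 of 1944 without NCOR1 (1.96%). The ratio was also graded with NCOR1 itself: in quintiles of the NCOR1 tag count at these sites, the median was -0.12 where NCOR1 was 5.63 to 14.3 and -0.50 where it was 45.3 or more. GR strength moved with NCOR1 along these quintiles, with median control tag counts from 10.9 to 22.4, and its part in the gradient was not tested. The groups differed in peak shape as well, with a median enrichment over the surrounding 10 kb in control of 8.57-fold at sites with NCOR1 in control alone and 17.3-fold at sites without; the part of this in the result was not tested.

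**Figure D3:**
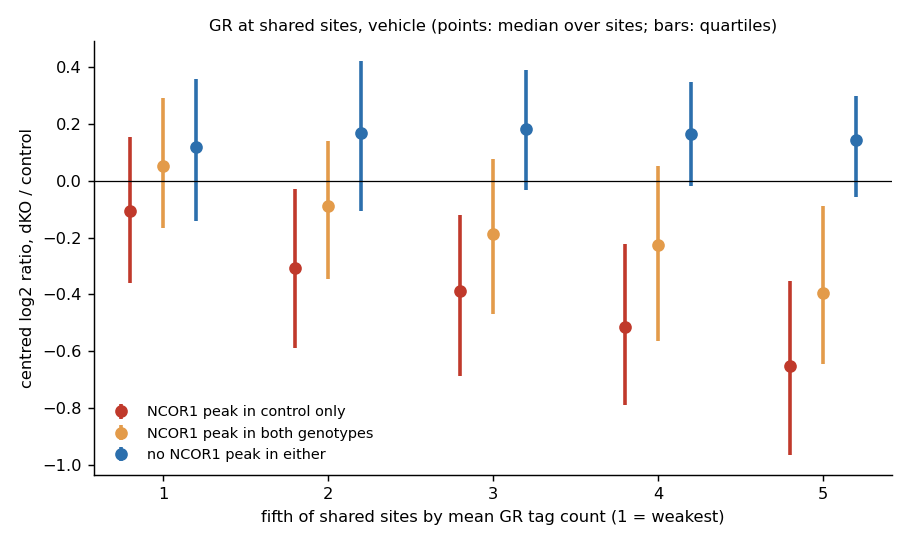
Centred log2 ratio of GR (dKO over control, vehicle) by quintile of shared sites in mean GR tag count (1 is the weakest), for sites with an NCOR1 peak in control alone (red), in both genotypes (orange) and in neither (blue); points are medians over sites and bars the quartiles. The red medians run from -0.10 to -0.65 and the blue medians stay between 0.12 and 0.18.

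Read the other way, 33 of the 35 sites with a ratio of -2 or lower (94.3%, exact 95% interval 80.8 to 99.3) and 88.4% of the 783 sites between -2 and -1 had a control NCOR1 peak. That share was 55.8% of sites between -0.5 and 0, 25.4% between 0 and 0.5, and 17.7% between 0.5 and 1. It was 27.8% (18.4 to 39.1) at the 79 sites above 1. On the X chromosome, where 20.1% of 447 shared sites had a control NCOR1 peak, the median ratio was 0.11, while on the autosomes these shares were 42.3 to 51.6% and the medians -0.04 to 0.03.

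Absence from the dKO list altogether was also most frequent with NCOR1 in control alone. Of control peaks with NCOR1 in control alone, 47.4% had no dKO peak within 500 bp, against 30.1% of those with NCOR1 in both genotypes and 19.4% of those without NCOR1. The 870 peaks with NCOR1 in dKO alone were absent in 36.8% of cases. Strength differs between the 4 groups, with median tag counts of 11.8, 11.6, 15.3 and, with NCOR1 in dKO alone, 8.37. The difference between NCOR1 in control alone and no NCOR1 kept its direction in each quintile of the control list. In the weakest quintile 73.7% and 64.3% had no dKO peak, in the middle one 48.5% and 11.0%, and in the strongest 11.4% and 2.66%.

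In livers treated with dexamethasone, a synthetic GR agonist (1 mg/kg, same times, same genotypes), the genotype ratio was ordered as under vehicle. These GR libraries are separate from the vehicle ones. Both dexamethasone lists called 16156 of the shared sites, with an uncentred median of -0.40. Sites at -2 or lower under vehicle had a median centred ratio of -1.40 under dexamethasone (35 sites), those from -2 to -1 one of -0.61, and those from -1 to -0.5 one of -0.32. Sites above 1 stood at 0.42 (74 sites). Across the 16156 sites the vehicle and dexamethasone ratios had a Spearman rho of 0.44 and a Pearson r of 0.50; sites of 1 pair of lists share its depth and its input, and they are not replicates. Within the strongest quintile rho was 0.63, and among sites without NCOR1 it was 0.15.

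**Figure D4:**
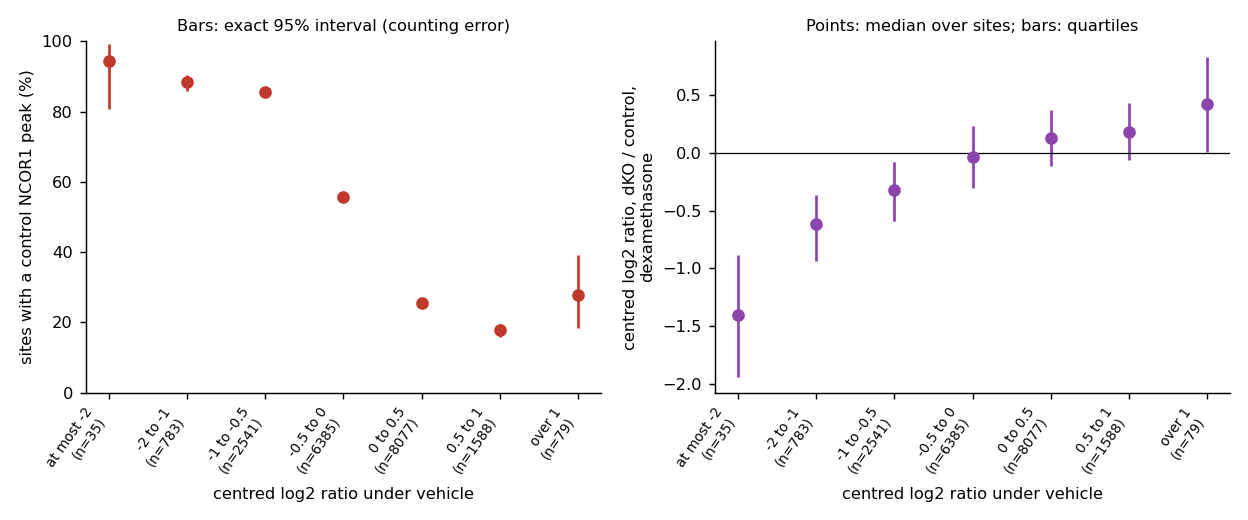
Shared GR sites in 7 classes of the centred log2 ratio under vehicle (x axis, number of sites in brackets). Left, percent of sites with a control NCOR1 peak, with exact 95% intervals for counting error; right, centred log2 ratio of dKO over control under dexamethasone, as median and quartiles over the sites called in both dexamethasone lists. The NCOR1 share goes from 94.3% in the lowest class to 17.7% between 0.5 and 1, and the dexamethasone median from -1.40 to 0.42.

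The 4 GR lists side by side show where the groups of sites differ. With NCOR1 in control alone (5222 sites called in all 4 lists), median tag counts were 17.3 in control and 11.6 in dKO under vehicle, and 23.6 and 14.9 under dexamethasone. Without NCOR1 (8676 sites), they were 17.3 and 17.2 under vehicle, and 12.7 and 10.8 under dexamethasone. The control vehicle medians of these groups were equal at sites called in all 4 lists, but 15.7 and 16.7 over all their shared sites. The spread of strength differed between the groups, and its part in the gap between genotypes was not tested.

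Sites of control alone were called less often under dexamethasone than shared sites. Of the 9925, 63.9% were called in the control dexamethasone list and 32.8% in the dKO one, against 91.8% and 85.9% of shared sites. With only dexamethasone peaks at least 8-fold over input counted, 41.1% and 15.3% of the 9925 were called. Within the strongest quintile of control peaks the shares in the dKO dexamethasone list were 62.3% for sites of control alone and 96.1% for shared sites. The strongest site of control alone lay inside Myom3, a sarcomere gene, with a tag count of 94.3 (chr4:135788566-135788766), and it had 101.6 in control and 22.4 in dKO under dexamethasone. The next 9 had 53.5 to 86.1 and lay at Ptpn1, Scara5, Nhej1, Slc12a3, Hmcn2, Arrdc5, Pole4, Zbtb16 and Tat. All 10 were called under dexamethasone in control and 8 in dKO, without a peak there at Hmcn2 and Zbtb16, and 7 overlapped a control NCOR1 peak, as did 71.6% of all 9925. The Scara5 site lay in the same gene as the weakened site above, and its nearest dKO peak was 1972 bp away.

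Sites of dKO alone were weaker still. The strongest, inside C1qtnf6, had a tag count of 39.3 (chr15:78530654-78530854), and 86.9 in control and 69.6 in dKO under dexamethasone. The others of the first 10 were near Ptpn1 (35.6), Slc45a1 (27.5), Gstm2 (23.8), Prtg (23.4), Bcar3 (22.8), Cidec (22.6), Arl5b (22.2), Tmem115 (22.0) and Gstm4 (21.7). Gstm2 and Gstm4 encode glutathione transferases, and Cidec a lipid droplet protein. Under dexamethasone 7 of the 10 were called in control and 7 in dKO, and 3 overlapped a control NCOR1 peak. Over all 3439 sites of dKO alone these shares were 47.7%, 41.0% and 44.4%. In 6 of the 10 the enrichment over the surrounding 10 kb was under 8-fold, and in 5 of the 10 strongest sites of control alone.

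By gene list, the lowest ratios were at genes of hepatocyte function. Lists were compared with all shared sites, whose median is 0 and of which 4.2% were 2-fold below it. Plasma protein and hepatocyte identity genes had a median of -0.67 over 45 sites of 20 genes, 16 of them (35.6%) 2-fold below, and 93.3% with a control NCOR1 peak against 45.2% of all shared sites. Alb, which encodes albumin, had 182.2 in control and 76.9 in dKO at its strongest site, and 5 of its 6 shared sites were 2-fold below. The fibrinogen gene Fgg had 47.1 and 19.1, the complement gene C3 41.9 and 24.1, and Cps1, the first enzyme of the urea cycle, 117.9 and 53.3.

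Amino acid catabolism and urea cycle genes had a median of -0.53 over 70 sites, 13 of them 2-fold below. Prodh, the proline dehydrogenase gene, had 199.5 in control and 98.9 in dKO, and the glutamine synthetase gene Glul 118.1 and 80.1. Acute phase and inflammation genes stood at -0.50 over 39 sites, with 89.2 and 34.5 at the interleukin 6 receptor gene Il6ra and 154.2 and 84.3 at the NF-κB inhibitor gene Nfkbia. For GR targets the median was -0.42 over 82 sites, 16 of them 2-fold below, among them Fkbp5, and the mRNA-destabilizing factor gene Zfp36 had 381.9 and 175.2. Gluconeogenesis genes stood at -0.41 over 70 sites, with 70.8 in control and 34.0 in dKO at the pyruvate carboxylase gene Pcx, but 180.6 and 131.8 at Foxo3, a forkhead factor gene.

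Genes of bile acid and cholesterol metabolism had a median of -0.42 over 54 sites, and the lowest of the named ones was Srebf2, the master regulator of cholesterol synthesis, with 67.9 in control and 14.9 in dKO. Hepatocyte transcription factors stood at -0.35 over 102 sites, with 161.6 and 85.2 at Nfia, and growth hormone and STAT5 genes at -0.29 over 35 sites, with 111.4 and 32.8 at Igf1. Insulin signalling and glycogen genes stood at -0.25 over 78 sites, with 146.0 and 57.8 at the PI3-kinase subunit gene Pik3r1, and nuclear receptors at -0.25 over 60 sites, with 184.6 and 71.3 at Rxra.

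Other lists stood nearer the typical site. Medians were -0.14 for xenobiotic metabolism (41 sites), -0.12 for lipogenesis (56) and -0.12 for clock genes (58), and the last pair turned to 0.008 and 0.018 when ratios were centred on the strongest quintile. In lipogenesis, Lpin1, a phosphatidate phosphatase gene, had 329.6 in control and 130.4 in dKO, whereas the acetyl-CoA carboxylase gene Acacb had 37.9 and 47.5. The Acacb site overlapped NCOR1 peaks of both genotypes, with NCOR1 tag counts of 88.6 in control and 144.6 in dKO. Fatty acid oxidation and ketogenesis genes stood at 0.03 over 20 sites, although 85.0% of these had a control NCOR1 peak. Among them the carnitine palmitoyltransferase gene Cpt1a had 59.7 and 25.4, and Angptl4, which encodes an inhibitor of lipoprotein lipase, 145.1 and 66.0. Of the control peaks near this list 24 of 44 (54.5%) had no dKO peak within 500 bp, against 33.1% of all control peaks.

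Lists of neuronal genes, markers of other liver cell types and ribosomal proteins had medians above 0, and each is 0.19 lower without centring, which puts them at or below 0. These were 0.06 for neuronal genes (51 sites), 0.13 for endothelial, stellate and cholangiocyte markers (27 sites), 0.19 for Kupffer cell and leukocyte markers (5 sites) and 0.10 for ribosomal proteins (4 sites). Control NCOR1 peaks overlapped 17.6%, 40.7%, 20.0% and 50.0% of their sites. Single sites stood apart from these medians: Stab2, a marker of sinusoidal endothelium, had 80.6 in control and 14.0 in dKO, and the glutamate receptor gene Grin2b 74.6 and 27.1, and both overlapped a control NCOR1 peak. Of the 13 Kupffer cell and leukocyte markers, 7 had any GR peak in control, and 5 had one in dKO. Of the 25 plasma protein and identity genes, 22 had one in each list. The share of all genes with a GR peak is not given here, so these gene counts are a description without a baseline. Genes of the corepressor complex stood at 0.10 over 27 sites, with 0 sites 2-fold below.

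**Figure D5:**
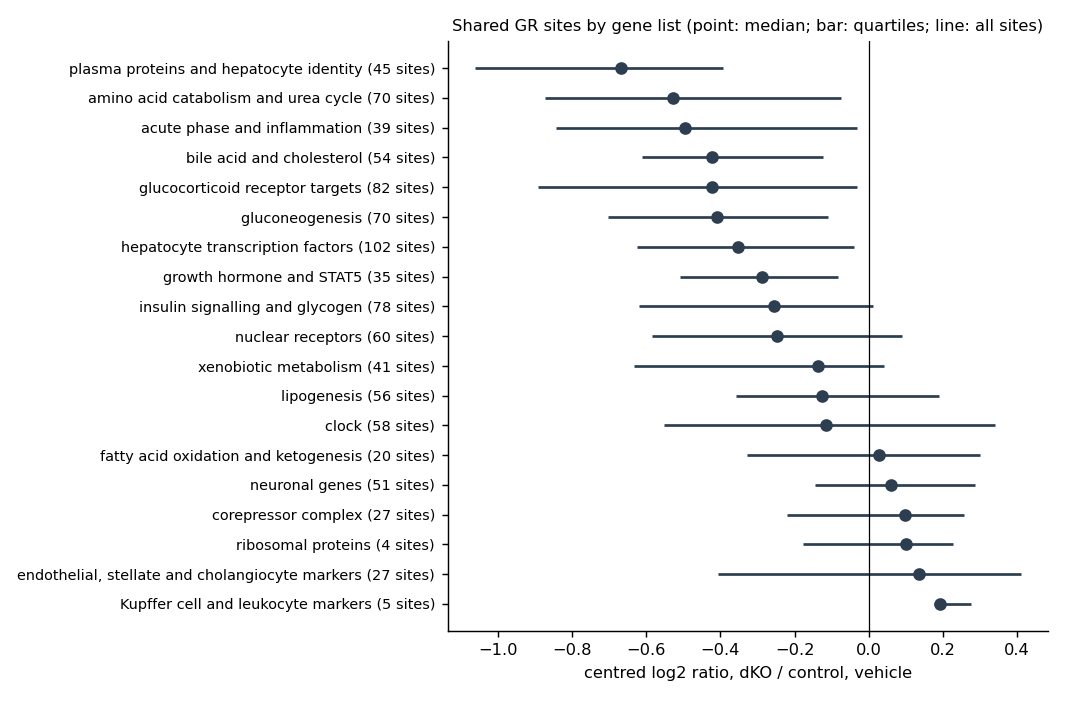
Centred log2 ratio of GR (dKO over control, vehicle) at the shared sites of 19 gene lists, with the number of sites beside each name; points are medians over sites, bars the quartiles, and the vertical line the median of all shared sites. Plasma protein genes stand lowest at -0.67 and Kupffer cell and leukocyte markers highest at 0.19, from 5 sites.

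Of 589 genes with 5 or more shared sites, 41 had all of them below the median ratio and 14 none. By definition 50.0% of all shared sites lie below the median, so some genes of both kinds would be found in any case. How many was not worked out. The lowest medians over genes with 5 or more shared sites were -1.19 at Cmah (5 sites), -1.17 at Wdr5 (6), -1.14 at Alb (6), -1.11 at Spin1 (5) and -1.04 at Mtss1 (9 sites, all below 0). The highest were 0.52 at Cdh18, 0.51 at Plxnc1 and 0.46 at Npas3, with 5 sites each and 1, 1 and 0 of them with a control NCOR1 peak.

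At promoters, the DNA under shared sites differed along the ratio. Each pattern below was searched on both strands of the whole window, and matches of different patterns may overlap. The consensus GR palindrome, in capitals in the first 5 sequences above, was in 5 of the 161 windows (3.11%) whose GR site had a ratio of -0.5 or lower and in 9 of the 387 (2.33%) between -0.5 and 0. It was in 0 of 528 between 0 and 0.5 and 0 of 96 above 0.5, and in 0.222% of all 32817 windows of this length. Without the outermost base on either side, the palindrome was in 12, 13, 1 and 0 windows of the 4 classes (7.45%, 3.36%, 0.189% and 0), and in 0.475% of all windows. AGAACA, a single arm of that palindrome, was in 29.8%, 19.9%, 10.2% and 9.38% of the 4 classes, and in 19.0% of all windows. TGNACTTTG, a core of the HNF4A element, was in 6.83%, 2.58%, 0.379% and 1.04%, and in 1.41% of all. For TTNCNNAA, which many C/EBP sites hold, the shares were 54.7%, 40.8%, 23.1% and 29.2%, and 40.7% of all windows. The GC box GGGGCGGGG, shown at Id4, ran in the other direction, in 4.35%, 17.1%, 23.9% and 20.8%, and in 11.4% of all. Windows of weakened sites thus held letters of GR and hepatocyte factor elements more often than those of kept sites.

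Base composition moved with these patterns. The median GC content of the 4 classes was 52.7%, 60.0%, 66.0% and 69.5%, with 6, 21, 27 and 35 CpG dinucleotides per window, and its part in the motif shares was not tested. The share of windows with a control NCOR1 peak at their GR site was 89.4%, 72.3%, 52.1% and 23.96%. In all 14 patterns were searched. The E-box CACGTG was in 5.59%, 9.30%, 11.5% and 14.6% of the classes (7.15% of all), and the forkhead pattern TGTTTAC in 6.83%, 5.43%, 1.70% and 4.17% (3.65% of all). The STAT pattern TTCNNNGAA was in 11.8%, 7.75%, 4.54% and 7.29% (8.29% of all), and the ETS pattern CCGGAAGT in 7.45%, 9.82%, 12.7% and 2.08% (3.89% of all). The D-box pattern TTATGNAA was in 6.83%, 4.39%, 1.70% and 1.04% (3.38% of all), and the related TTACGTAA in 3 windows of the first class and 0 of the others (0.119% of all). The CRE pattern TGACGTCA was in 4.35%, 3.10%, 3.03% and 3.12% (1.79% of all), and CCAATNNG, of NF-Y, in 17.4%, 8.01%, 10.8% and 12.5% (14.0% of all). A match is a description of letters, and GR strength also varied between the classes, with median mean tag counts of 16.8, 12.5, 15.6 and 14.7.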

How the data were processed

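GR and NCOR1 were measured by ChIP-seq in mouse liver, and 1 input library served as background. The submitters' processing notes name HOMER 4.11, BWA 0.7.17, bedtools 2.29.2, Trim Galore 0.6.4 and mm10. Peaks of 200 bp were called on the pooled libraries of a group, per the file headers, which give limits of 4-fold over input and over 10 kb around the peak and a p-value limit of 1.00e-04, with 15 tags as the threshold. The normalized tag count is a signal in tags per 10 M tags, deposited by the authors. The findPeaks score, a tag number with a limit per position, is deposited by the authors and was used as an alternative. Fold over input and fold over the local 10 kb are ratios deposited by the authors, as is the p-value against input of each peak.

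Peaks of the 2 lists sharing at least 1 bp were paired, and log2 ratios of tag count, each from the list's own 200 bp window, were centred on their median. Tag counts were turned back into tags for exact binomial intervals, and shares have 95% Clopper-Pearson intervals; both cover counting error only. Another list has a site where its peak overlaps by 1 bp. A site belongs to the protein-coding gene whose body is nearest within 100 kb (RefSeq, GRCm38.p6); all 371 entries of the 19 lists were in that table. Genes are named by rule: the 12 lowest and 12 highest ratios among sites above the median mean tag count (15.4), 1 site per gene; the 10 strongest sites of each genotype alone; the 10 strongest shared sites; up to 4 genes per list by mean tag count; and 18 fixed genes. Genes outside it, including those with 5 or more sites and those at promoters, were chosen after their values were seen, as were the motifs. The members and lists were chosen with earlier results of these data known. Scripts (Python 3.11.15, pandas 2.3.3, SciPy 1.17.1) were tested on simulated data, and overlaps were checked with bedtools 2.31.1. Alternatives were overlaps of at least 100 bp, other gap limits, stricter enrichment, lists of equal length, the score or input-subtracted tags in place of tag count, other centring, a 1.5-fold limit and a gene distance of 50 kb. Some results are not reported here.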

Additional observations from a re-analysis of the deposited data

How the results depend on the processing

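No paired analysis was possible because the libraries of a group were pooled before deposit, and for the same reason no library could be left out in turn. The median ratio with NCOR1 in control alone stayed below that without NCOR1 under each of the 6 settings run on it. The pairs of medians were -0.38 and 0.15 with an overlap of at least 100 bp, -0.46 and 0.12 for peaks at least 8-fold over input in both lists, -0.34 and 0.15 with the findPeaks score, -0.39 and 0.18 with scaled input subtracted, -0.22 and 0.29 centred on the strongest quintile, and -0.55 and -0.033 without centring, where the sign without NCOR1 reverses by construction. Sites 2-fold below the reference numbered 1450 without centring and 499 centred on the strongest quintile, and 2705 with a limit of 1.5-fold. Sites above it numbered 26, 182 and 1033 in the same order, 35 for peaks at least 8-fold over input and 122 with scaled input subtracted.

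Counts of sites of 1 genotype depended most on the list. At least 8-fold enrichment over the local 10 kb left 10993 shared, 4726 control and 764 dKO sites, with each list filtered before pairing. Lists of equal length gave 5550 control and 5657 dKO sites, near equal by construction. An overlap of at least 100 bp with the other lists gave control NCOR1 peaks at 82.5% of sites 2-fold below and 20.1% of sites above the median, and called 59.7% and 30.2% of sites of control alone in the control and dKO dexamethasone lists. Other lists limited to 8-fold over input gave 82.5%, 19.8%, 41.1% and 15.3%. Centred on the strongest quintile, lipogenesis (0.0084) and clock genes (0.018) moved above 0. For named sites, 271 values stayed within their counting interval and 23 did not. Of the sites named here, Ncor1 (-0.03) and Nr3c1 (-0.08) changed sign without centring and Per1 (0.0018) centred on the strongest quintile. Tag counts limit ratios at weak sites, where counting alone gives an SD of 0.43.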
